A study of Mus musculus with 48 samples.

Results

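TRBV29 is the mouse T cell receptor (TCR) β variable segment whose product is known serologically as Vβ7. Every clone assigned to TRBV29 in the TCRβ repertoires of 4 tumor-bearing mice was taken, which gave 45675 of the 959731 clone entries over all 48 libraries. An entry is 1 clone in 1 library. C57BL/6 female mice aged 8 weeks carried Lewis lung carcinoma (LLC), a mouse lung tumor line, under the skin of both sides of the back, and T cells were sorted on day 13. The groups were CD4+ T cells of the tumor, CD8+ T cells of the tumor, CD4+ CD44hi T cells of the tumor-draining lymph node (dLN) and CD8+ CD44hi T cells of the dLN. Each mouse gave 4 tumor libraries (2 fragments on each side) and 2 dLN libraries (left and right) for each subset. All mice carried tumors, and no tumor-free group was part of the comparison.

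A TCRβ chain is built by joining 1 V, 1 D and 1 J segment, and the junction, the complementarity-determining region CDR3, contacts the antigen. TRBV29 is used by conventional CD4+ and CD8+ T cells. In the mouse it is also one of the few V segments used by invariant natural killer T (NKT) cells, which pair an invariant α chain with Vβ8, Vβ7 or Vβ2 chains and recognize lipids on CD1d. Only the β chain was sequenced, and the sorting gate excluded cells positive for NK1.1, a marker carried by many NKT cells. The files hold no α chain and no other NKT marker, so whether a TRBV29 clone came from an NKT cell was not tested. The gates excluded intravenously stained cells and cells positive for CD11b or B220, and CD44 was used only for the dLN cells. The tissue and the CD44 gate therefore cannot be told apart in a comparison of tumor and dLN.

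In the GRCm38 annotation, Trbv29 lies on the plus strand of chromosome 6 from 41271394 to 41271881, with exon 1 from 41271394 to 41271451 and exon 2 from 41271587 to 41271881. The last 17 bases of exon 2, from 41271865 to 41271881, encode the start of the CDR3, beginning with the codon of its conserved cysteine. They are shown first because TRBV29 junctions start with them, trimmed to a varying extent, and 98.4% of 35701 distinct TRBV29 clones matched them over their V bases. The lines after it show, for each mouse, the TRBV29 clone with the highest mean frequency over the left and the right tumor. Capitals mark the bases between the V and the J segment, that is, the D segment and inserted bases.
Trbv29 germline end: tgtgctagcagtttatc
CD4 tumor, mouse 5: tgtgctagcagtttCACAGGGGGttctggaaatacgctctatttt
CD4 tumor, mouse 6: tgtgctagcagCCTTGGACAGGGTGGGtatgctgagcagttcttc
CD4 tumor, mouse 7: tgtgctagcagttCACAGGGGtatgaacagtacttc
CD4 tumor, mouse 8: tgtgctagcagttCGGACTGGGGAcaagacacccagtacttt
CD8 tumor, mouse 5: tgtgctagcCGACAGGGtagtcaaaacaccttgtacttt
CD8 tumor, mouse 6: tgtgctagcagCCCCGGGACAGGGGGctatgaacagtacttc
CD8 tumor, mouse 7: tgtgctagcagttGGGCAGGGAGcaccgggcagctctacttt
CD8 tumor, mouse 8: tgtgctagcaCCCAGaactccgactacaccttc
Among the 8 tumor clones the V segment kept 9 to 14 of the 17 bases, and all 8 sequences differ. Their frequencies are given with the large clones.

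The libraries held between 326582 and 4840720 deposited reads. Each was drawn at random to 6 reads per sorted cell, which left between 131070 and 2035380 reads per library and 43501 TRBV29 entries. The libraries of a mouse were then summed within each group, so that n = 4 mice throughout, and a clone was counted once per mouse and group. The 4 mice together gave 5745 TRBV29 clones of 82605 in the CD4 tumor group and 15422 of 325326 in the CD8 tumor group. They gave 2091 of 107296 in the CD4 dLN group and 16145 of 280398 in the CD8 dLN group.

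TRBV29 formed a much larger share of the distinct CD4+ clones in the tumor than in the dLN. In the CD4 tumor repertoires of mice 5, 6, 7 and 8 it made up 5.46%, 7.17%, 7.40% and 7.0% of the clones. In the CD4 dLN repertoires of the same mice it made up 1.87%, 1.98%, 1.92% and 2.01%. The groups did not overlap, and the spread within the dLN group was small. The means were 6.76% ± 0.879 (SD, n = 4) in the tumor, where TRBV29 ranked 5 of 25 V segments, and 1.94% ± 0.0629 (SD, n = 4) in the dLN, where it ranked 17. The log2 fold change was 1.81 ± 0.06 (SE; edgeR quasi-likelihood test over all V segments, adjusted p = 4.14e-21). In an exact permutation test of mouse means it was 1.65 (adjusted p = 0.0457).

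Among CD8+ clones the difference had the opposite direction and was small. TRBV29 made up 4.89%, 4.65%, 4.65% and 4.91% of the CD8 tumor clones in mice 5 to 8, against 5.81%, 5.75%, 5.81% and 5.66% of the CD8 dLN clones. All tumor values lay below all dLN values, with means of 4.78% ± 0.142 and 5.76% ± 0.0711 (SD, n = 4). The share fell by 0.27 on the log2 scale (SE 0.05, edgeR adjusted p = 2.43e-05). The CD4 dLN repertoire thus stood lowest of the 4 groups, the CD8 tumor and CD8 dLN repertoires followed, and the CD4 tumor repertoire had the highest mean, although its lowest value, 5.46% in mouse 5, lay below all values of the CD8 dLN group.

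**Figure D1:**
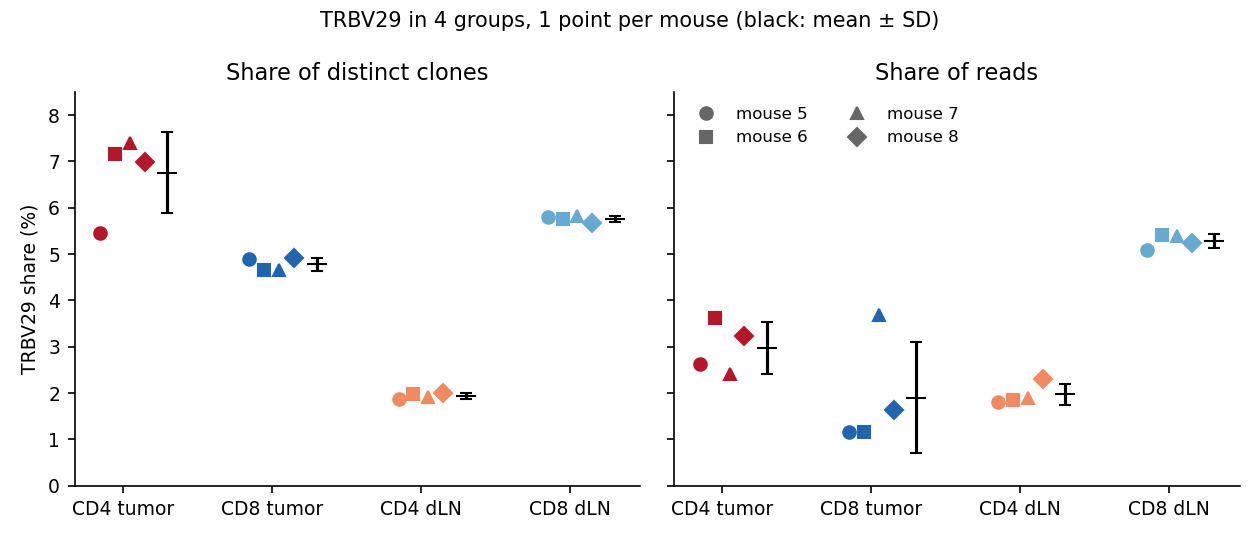
TRBV29 share in percent (vertical axis) of distinct clones (left) and of reads (right) in the 4 groups. Each point is 1 mouse, and the black bar gives the mean ± SD of 4 mice. By clones the CD4 tumor points, from 5.46% to 7.40%, sit far above the CD4 dLN points, from 1.87% to 2.01%, while by reads mouse 7 stands apart in the CD8 tumor group.

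The TRBV29 rise has to be read against all V segments, since most segments differed in clone share between tumor and dLN. Of 24 segments tested, 83.3% passed an adjusted p of 0.05 in CD4+ T cells and also in CD8+ T cells, in either direction. In CD4+ T cells TRBV29 had the largest log2 fold change of the 24, and the next were TRBV13-2 with 0.70 ± 0.04, TRBV24 with 0.69 ± 0.13 and TRBV17 with 0.61 ± 0.07 (SE). The median over all segments was -0.22, so that TRBV29 stood 2.03 above the median. In CD8+ T cells TRBV29 ranked 23 of 24. Under TMM normalization and DESeq2 the TRBV29 ranks in both comparisons were the same, and its distance from the median in CD4+ T cells was 2.03 and 2.02.

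**Figure D2:**
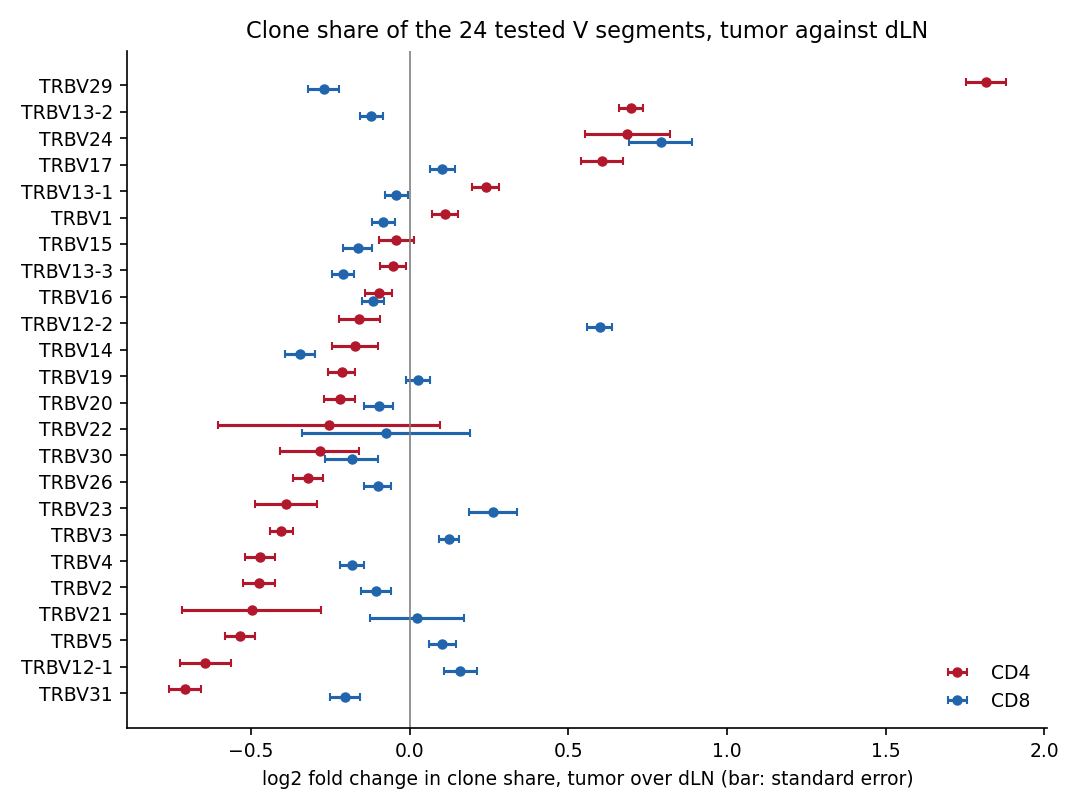
Log2 fold change in clone share between tumor and dLN (horizontal axis) for the 24 tested V segments, for CD4+ (red) and CD8+ (blue) T cells, with standard errors as bars. TRBV29 lies at 1.81 in CD4+ T cells, apart from every other segment, and at -0.27 in CD8+ T cells.

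CD8+ and CD4+ clones were also compared within each tissue. In the dLN the TRBV29 clone share was higher in CD8+ T cells, by 1.56 ± 0.06 on the log2 scale (SE, edgeR adjusted p = 9.47e-21), in a comparison in which 95.8% of the 24 segments passed. In the tumor it was lower in CD8+ T cells, with a log2 fold change of -0.52 ± 0.05 (SE, edgeR adjusted p = 2.15e-10), and 83.3% of segments passed. With an exact permutation test of mouse means, left and right averaged, in place of edgeR, the tumor difference was -0.36 and did not pass (adjusted p = 0.0722, unadjusted p = 0.0571). Mouse 5 had 5.08% and 4.67% in its left and right CD4 tumors. The difference between the subsets in the change from dLN to tumor was -2.09 ± 0.08 (SE, edgeR interaction, adjusted p = 5.66e-20). TRBV29 had the most negative value of the 24 segments in this interaction, of which 66.7% passed.

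The other V segments linked to NKT cells did not all move in the same way. TRBV1 encodes Vβ2, and TRBV13-1, TRBV13-2 and TRBV13-3 encode the Vβ8 chains. In clone share, 3 of these 4 rose in CD4+ T cells from dLN to tumor, where 25.0% of the 24 segments rose, and none fell, while TRBV13-3 did not pass (log2 fold change -0.05, edgeR adjusted p = 0.210, with a positive sign under TMM and DESeq2). TRBV13-2, the Vβ8.2 segment, went from 11.5% ± 0.216 of CD4 dLN clones to 18.5% ± 1.31 of CD4 tumor clones (SD, n = 4). The changes of TRBV13-1 and TRBV1 were smaller, with log2 fold changes of 0.24 and 0.11. In CD8+ T cells 3 of the 4 fell, where 54.2% of the 24 segments fell, and TRBV13-1 did not pass (log2 fold change -0.04, edgeR adjusted p = 0.280). The log2 fold changes of those that fell were -0.21 for TRBV13-3, -0.12 for TRBV13-2 and -0.08 for TRBV1. Under TMM 1 of the 4 fell, TRBV13-3, where 5 of the 24 segments fell, and under DESeq2 2 of the 4 fell, where 9 did. The interaction values of these segments ran from -0.16 for TRBV13-3 to -0.82 for TRBV13-2. In that interaction 6 of the 24 segments passed with a negative value, and 9 did under DESeq2.

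Over the 16 values of log2 clone share (4 mice in 4 groups), the segments whose pattern was most like that of TRBV29 were TRBV13-1 (Pearson r = 0.912), TRBV17 (r = 0.630) and TRBV14 (r = 0.313). These values share mice and libraries and are given as a description. TRBV17 had 1.18% ± 0.0284 of CD4 dLN clones and 1.78% ± 0.122 of CD4 tumor clones (SD, n = 4). Unlike TRBV29, TRBV17 was higher in the CD8 tumor than in the CD8 dLN (log2 fold change 0.10, edgeR adjusted p = 0.0283) and higher in CD8+ than in CD4+ tumor clones (1.11).

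By reads TRBV29 took a smaller share of the tumor repertoires than by clones. TRBV29 held 2.63%, 3.62%, 2.41% and 3.24% of the CD4 tumor reads in mice 5 to 8, and 1.82%, 1.86%, 1.90% and 2.31% of the CD4 dLN reads. All 4 tumor values lay above all dLN values, with means of 2.97% ± 0.556 and 1.97% ± 0.227 (SD, n = 4). The log2 fold change of 0.59 ± 0.32 (SE) did not pass edgeR's test (adjusted p = 0.380), and neither did the value under TMM (0.76, edgeR adjusted p = 0.0593) or in an exact permutation test of mouse means (0.60, adjusted p = 0.0980). It passed with DESeq2 (0.69, adjusted p = 0.00954) and without clones above 0.1% of a repertoire (0.89, edgeR adjusted p = 4.85e-10). TRBV29 again had the largest positive value of the 24 segments, of which 8.33% passed. In reads of bulk RNA, more cells of a kind and more TCR RNA per cell cannot be told apart.

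In CD8+ T cells the read share fell. TRBV29 held 1.15%, 1.15%, 3.67% and 1.64% of the CD8 tumor reads in mice 5 to 8, and 5.09%, 5.41%, 5.4% and 5.23% of the CD8 dLN reads. Mouse 7 stood well above the other 3 tumors, and still below every dLN value. The log2 fold change was -1.47 ± 0.32 (SE, edgeR adjusted p = 9.18e-04) and 45.8% of segments passed. Without mouse 7 the value was -2.0, and without clones above 0.1% of a repertoire it was -0.29 (edgeR adjusted p = 0.00380). An exact permutation test of mouse means gave -1.46 and did not pass after adjustment (adjusted p = 0.0571). The median of all segments was -0.52, and TRBV29 stood at -0.95 relative to it.

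In the dLN the TRBV29 read share was higher in CD8+ than in CD4+ T cells, by 1.42 ± 0.32 on the log2 scale (SE, edgeR adjusted p = 0.00168), and 41.7% of segments passed. In the tumor the difference between CD8+ and CD4+ T cells, -0.64 ± 0.32 (SE), did not pass (edgeR adjusted p = 0.103), where 50.0% of segments did. Without mouse 7 it was -1.27 (edgeR adjusted p = 3.66e-04), and without clones above 0.1% of a repertoire it changed sign to 0.18 (edgeR adjusted p = 0.0418). The interaction was -2.06 ± 0.45 (SE, edgeR adjusted p = 0.00182), and 33.3% of segments passed. It did not pass in an exact permutation test of mouse means (-2.23, adjusted p = 0.0980), and was -1.18 without clones above 0.1% (edgeR adjusted p = 1.66e-09). The 95% Wilson intervals of the read shares on the estimated number of cells were at most 0.249 percentage points wide and cover counting error only.

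The ratio of read share to clone share shows how large TRBV29 clones were on average relative to other clones of the repertoire. In the CD4 dLN this ratio was 1.01 ± 0.0926, and in the CD8 dLN 0.917 ± 0.0282 (SD, n = 4). In the CD4 tumor it was 0.443 ± 0.0806, which ranked 21 of 22 segments with at least 20 clones in every mouse. In the CD8 tumor it was 0.236, 0.248, 0.790 and 0.333 in mice 5 to 8, and mouse 7 again stood apart.

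The same was visible when clones were sorted by their number of reads. In the CD4 tumor, TRBV29 made up 6.62% ± 0.998 of clones with 1 to 6 reads and 7.74% ± 1.00 of clones with 7 to 60 reads (SD, n = 4). It made up only 3.57% ± 0.591 of clones with 61 to 600 reads and 1.99% ± 0.202 of clones above 600 reads. In every mouse the share in the class above 600 reads was below that in each of the other classes. In the CD4 dLN the share was between 1.78% and 2.18% on average in all 4 classes. In the CD8 tumor the means were 4.68%, 4.85% and 4.75% in the 3 lower classes and 2.54% ± 1.20 above 600 reads, a class with 23 TRBV29 clones. In the CD8 dLN the share was 5.93% in the lowest class and 3.42% ± 0.563 between 61 and 600 reads, and no TRBV29 clone exceeded 600 reads. The number of reads per group differs, so a class does not stand for the same frequency in each group.

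**Figure D3:**
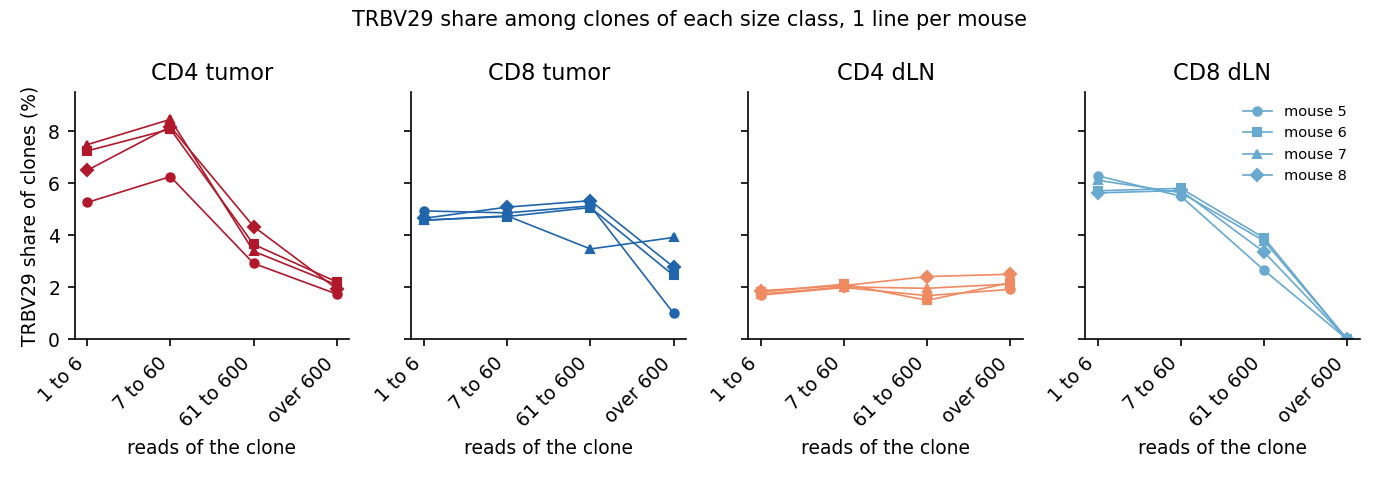
TRBV29 share of clones in percent (vertical axis) in classes of reads per clone (horizontal axis), with 1 panel per group and 1 line per mouse. In the CD4 tumor the share drops from a mean of 7.74% at 7 to 60 reads to 1.99% above 600 reads, and in the CD4 dLN it stays near 2%.

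No TRBV29 clone exceeded 1% of a repertoire in any mouse or group, although 69 clones of all segments did so in the CD8 tumor and 13 in the CD4 tumor. Above 0.1% there were 16 TRBV29 clones of 583 in the CD4 tumor (2.74%), 10 of 293 in the CD8 tumor (3.41%), 3 of 222 in the CD4 dLN (1.35%) and 0 of 19 in the CD8 dLN. The 16 CD4 tumor clones held 22.4% ± 2.96 of the TRBV29 reads (SD, n = 4). In the CD8 tumor the corresponding share ranged from 15.0% to 53.8% between mice.

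The 10 largest TRBV29 clones held 33.7%, 33.8%, 32.4% and 33.5% of the TRBV29 reads in the CD4 tumors of mice 5 to 8, and 30.5%, 22.7%, 22.5% and 28.2% in the CD4 dLNs. The groups did not overlap (difference of 7.39 percentage points, two-sided exact permutation test, p = 0.0286, the smallest that 4 against 4 mice allow). For CD8+ T cells the shares were 25.9%, 29.9%, 56.2% and 48.9% in the tumor and between 2.80% and 3.37% in the dLN (difference of 37.2 percentage points, exact permutation p = 0.0286). Of the 22 segments with enough clones, 77.3% passed this test in CD4+ and 86.4% in CD8+ T cells, so such a difference was usual among V segments. Without clones above 0.1% the CD4 difference changed sign to -3.16 percentage points (exact permutation p = 0.143), and the CD8 difference was 9.49 percentage points.

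The largest TRBV29 clones printed above differed in how evenly they were spread over the bilateral tumors. In the CD4 tumors all 4 were found on both sides. The TRBJ2-5 clone of mouse 8 had 0.323% of reads on the left (95% Wilson interval on estimated cells 0.297% to 0.352%) and 0.277% on the right (0.255% to 0.301%). The TRBJ2-1 clone of mouse 6 had 0.212% of left and 0.347% of right tumor reads. The clones of mice 5 and 7 had 0.152% and 0.173% in left and 0.198% and 0.171% in right tumors.

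In the CD8 tumors the clones of mice 5 and 8 were nearly confined to the right side. The TRBJ2-4 clone of mouse 5 had 0.495% on the right and no read on the left, where 3 reads would be 2.33e-04% of the repertoire. The TRBJ1-2 clone of mouse 8 had 0.981% on the right and 0.0140% on the left (95% Wilson intervals 0.955% to 1.01% and 0.0109% to 0.0178%), and held 32.3% of all TRBV29 reads of that group. The TRBJ2-2 clone of mouse 7 was even, with 0.886% of left and 0.857% of right tumor reads, and held 23.7% of the TRBV29 reads. The TRBJ2-7 clone of mouse 6 had 0.178% and 0.165%.

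Several of these clones were also found in the dLN of the same subset. The CD4 tumor clones of mice 5 and 6 were at the same time the leading TRBV29 clones of the CD4 dLN, with 0.195% and 0.0730% in the left dLN and 0.15% and 0.128% in the right dLN. The CD4 tumor clone of mouse 7 had no read in either CD4 dLN, and that of mouse 8 had 13 reads in the right CD4 dLN only. Of the CD8 tumor clones, that of mouse 7 led the CD8 dLN as well, with 0.0715% and 0.0455%. That of mouse 6 had 0.0249% and 0.0259% in the CD8 dLNs. Those of mice 5 and 8 had 0 and 3 reads in the CD8 dLNs. In the other T cell subset each of the 8 clones had at most 8 reads in a tumor side and none in a dLN.

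The leading TRBV29 clones of the CD4 dLN in mice 7 and 8 and of the CD8 dLN in mouse 8 are shown because they differ in how widely they were found.
CD4 dLN, mouse 7: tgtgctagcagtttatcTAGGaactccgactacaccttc
CD4 dLN, mouse 8: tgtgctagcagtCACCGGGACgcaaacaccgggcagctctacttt
CD8 dLN, mouse 8: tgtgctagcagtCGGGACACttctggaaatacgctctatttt
The CD4 dLN clone of mouse 7 retained all 17 germline V bases. It had 0.128% and 0.123% in the left and right dLN and 0.171% and 0.155% in the left and right CD4 tumor of that mouse. The CD4 dLN clone of mouse 8 had 0.165% and 0.202% in the dLNs and 0.0884% and 0.0659% in the tumors. The CD8 dLN clone of mouse 8 had 0.100% on the right and no read on the left (3 reads would be 7.67e-04%), and the same nucleotide sequence was found in 3 other mice. The leading CD8 dLN clones of mice 5 and 6 had at most 0.0579% in either dLN.

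TRBV29 reads overlapped less between the left and the right tumor than the pooled reads of other segments. The same comparison is not given for other single segments, so the difference is not shown to be particular to TRBV29. TRBV29 clones of the CD4 tumor were small on average (ratio of read to clone share 0.443), and the part of clone size was not tested. Overlap was the geometric mean, over both sides, of the share of reads in clones found on both sides. In the CD4 tumors it was 58.2%, 59.8%, 58.4% and 59.4% for TRBV29 in mice 5 to 8, and between 83.5% and 89.5% for the other segments. The difference was -26.3 percentage points (SD of the 4 differences 3.24, two-sided exact permutation test, p = 0.0286, lower in 4 of 4 mice). In the CD8 tumors the TRBV29 overlap was 15.7%, 43.2%, 65.9% and 52.7%, against 73.1% to 87.2% for the other segments (difference -38.6 percentage points, exact permutation p = 0.0286). Without clones above 0.1% the CD8 difference was -7.85 percentage points and did not pass (exact permutation p = 0.0857). In the dLNs the differences of -2.84 (CD4) and -1.61 percentage points (CD8) did not pass (exact permutation p = 0.343 and 0.20). The CD4 value ranged from -5.86 without mouse 8 to -0.92 without mouse 6. In the CD8 dLN the TRBV29 overlap was nevertheless lower in 4 of 4 mice (p = 0.125 in the exact test of sign changes within mice, the smallest it allows). These 4 tests belong to a family of 18 exact tests, in which a p of 0.0286 gave an adjusted p of 0.0468. With the mouse as a block, the smallest p that 16 sign changes allow is 0.125, so no exact test could pass, and each result with p = 0.0286 had that blocked p.

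The TRBV29 read shares of left and right sides were also compared within and between mice. In CD4 tumors the left and right TRBV29 shares differed by 0.215 ± 0.288 percentage points within mice (SD, n = 4) and by 0.717 ± 0.449 between mice (SD, n = 12 pairs; one-sided exact pairing test, p = 0.0417, the smallest that 24 pairings allow, adjusted p = 0.0625), which did not pass after adjustment. In the deposited reads the unadjusted exact p was 0.0833, and without clones above 0.1% the contrast within minus between mice moved from -0.502 to -0.273 percentage points. For CD8 tumors the differences were 0.445 and 1.40 percentage points (exact pairing test, p = 0.167). Without mouse 7 the CD8 contrast within minus between mice moved from -0.959 to -0.0121 percentage points. In the dLNs the within-mouse differences of 0.254 (CD4) and 0.267 (CD8) were close to the between-mouse differences of 0.302 and 0.250 (exact pairing test, p = 0.417 and 0.667).

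Few TRBV29 clones of the CD4 tumor were found in the CD4 dLNs of the same mouse. The share was 7.01%, 5.61%, 4.73% and 6.46% in mice 5 to 8, against 24.9%, 23.9%, 18.5% and 21.2% of the clones of other segments. The difference was -16.2 percentage points (SD of the 4 differences 2.24, two-sided exact permutation test, p = 0.0286, lower in 4 of 4 mice). This result was chosen after its values were seen. TRBV29 had the lowest mean of 22 segments, 5.96%, and the next were TRBV24 with 14.7% and TRBV12-1 with 14.7%. A difference from the rest passed the same test for 36.4% of the segments. In the other direction, 12.3%, 12.2%, 20.4% and 17.2% of the CD4 dLN TRBV29 clones of mice 5 to 8 were found in the CD4 tumor, against 14.3%, 13.6%, 19.5% and 15.3% of other dLN clones. These ranges overlapped, and that difference was not tested. The 4 mice together had 5745 TRBV29 clones in the CD4 tumor and 2091 in the CD4 dLN. The same shared clones are divided by the tumor clones from the tumor side and by the dLN clones from the dLN side. The lower share from the tumor side is therefore not independent of the larger TRBV29 clone share in the tumor. By reads, 41.6% ± 1.18 of the CD4 tumor reads of TRBV29 were in clones found in the dLN, against 71.5% ± 3.0 for other segments (SD, n = 4).

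The lower share from the tumor side was also present among clones of like size. Of clones with 1 to 6 reads, 2.12% ± 0.504 of TRBV29 clones and 9.11% ± 2.29 of other clones were found in the dLN (SD, n = 4). At 7 to 60 reads the shares were 3.85% ± 1.24 and 16.6% ± 3.39, and at 61 to 600 reads 30.0% ± 6.99 and 54.2% ± 6.60. In these 3 classes the ranges over mice did not overlap. Above 600 reads they were 85.5% ± 14.6 and 85.8% ± 3.15, with 39 TRBV29 clones in all.

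The same difference can be given as TRBV29 shares. Among CD4 tumor clones found in the dLN, which are by definition also dLN clones, TRBV29 made up 1.91% ± 0.278 of clones, and among CD4 tumor clones not found in the dLN 8.04% ± 0.935 (SD, n = 4). Of the CD4 tumor TRBV29 clones, 3.23% ± 0.617 were found in any CD8+ library of the same mouse, against 5.95% ± 1.49 of other CD4 tumor clones (SD, n = 4). Of the CD8 tumor reads, 13.1% ± 19.8 of TRBV29 and 62.1% ± 6.64 of other segments were in clones also found in a CD4+ library of the mouse. The part of such shared clones in these results was not tested. In CD8+ T cells the share of TRBV29 tumor clones found in the dLN was 6.40% to 7.88%, and that of other tumor clones 5.96% to 8.10%. By reads, 12.5%, 32.1%, 51.4% and 47.9% of the CD8 tumor reads of TRBV29 in mice 5 to 8 were in clones found in the CD8 dLN, against 80.2%, 78.7%, 52.3% and 78.8% for other segments. The TRBV29 value was lower in each mouse, by little in mouse 7, and was not tested.

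Each of the 12 TRBV29 and J pairs rose in clone share from CD4 dLN to CD4 tumor, where 17.7% of all 254 V and J pairs rose. The log2 fold changes ranged from 1.41 for TRBJ1-6 to 2.71 for TRBJ1-2, with 2.23 for TRBJ1-3 and 2.15 for TRBJ2-3. In CD8+ T cells 10 of the 12 pairs fell, where 26.4% of pairs fell, and the pairs with TRBJ1-5 (-0.14) and TRBJ2-2 (-0.10) did not pass. In the dLN all 12 pairs were higher in CD8+ than in CD4+ T cells, where 33.5% of pairs were higher, by 0.65 for TRBJ1-5 to 1.99 for TRBJ1-1. In the tumor 8 of 12 were lower in CD8+ T cells, where 44.5% of pairs were lower, and those with TRBJ1-1, TRBJ1-6, TRBJ2-1 and TRBJ2-7 did not pass.

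The J segments most used by TRBV29 clones were TRBJ2-7, TRBJ1-2 and TRBJ2-5 in the CD4 tumor. TRBJ2-7 was found in 11.5%, 12.2%, 13.0% and 13.5% of CD4 tumor TRBV29 clones in mice 5 to 8, against 19.5% to 20.3% of clones of other segments. This was a log2 difference of -0.64 ± 0.05 (SE, edgeR adjusted p = 6.43e-21). TRBJ1-2 was found in 14.2%, 12.4%, 11.3% and 11.2% of them, against 5.17% to 6.06% of other clones, a log2 difference of 1.02 ± 0.08 (SE, edgeR adjusted p = 1.79e-19). In the CD4 dLN the TRBJ1-2 share of TRBV29 clones was 6.01%, 7.13%, 5.10% and 7.23%, and its difference from other clones, 0.29, did not pass (edgeR adjusted p = 0.0658). TRBJ1-2 was also more frequent among CD4 tumor TRBV29 clones not found in the dLN, 12.7% ± 1.39, than among those found there, 5.82% ± 2.94 (SD, n = 4, untested, with 47 to 104 clones per mouse in the latter class).

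Against clones of other segments, 7 of 12 J segments differed in the CD4 tumor, 12 in the CD8 tumor, 4 in the CD4 dLN and 11 in the CD8 dLN. The number of clones behind these tests was smallest in the CD4 dLN, and in the CD8 tumor a log2 difference of only -0.09 (TRBJ2-5) passed. No other V segment was compared with the rest in this way, so these counts are not shown to be particular to TRBV29. In all 4 groups TRBJ2-7 was lower, and TRBJ1-4 and TRBJ1-5 were higher, among TRBV29 clones. In the CD8 groups all 6 tested TRBJ1 segments were higher. In the CD4 dLN the largest difference was that of TRBJ1-5, with 5.63% ± 1.04 of TRBV29 clones and 2.87% ± 0.172 of other clones (SD, n = 4, log2 difference 1.01, edgeR adjusted p = 9.59e-05).

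**Figure D4:**
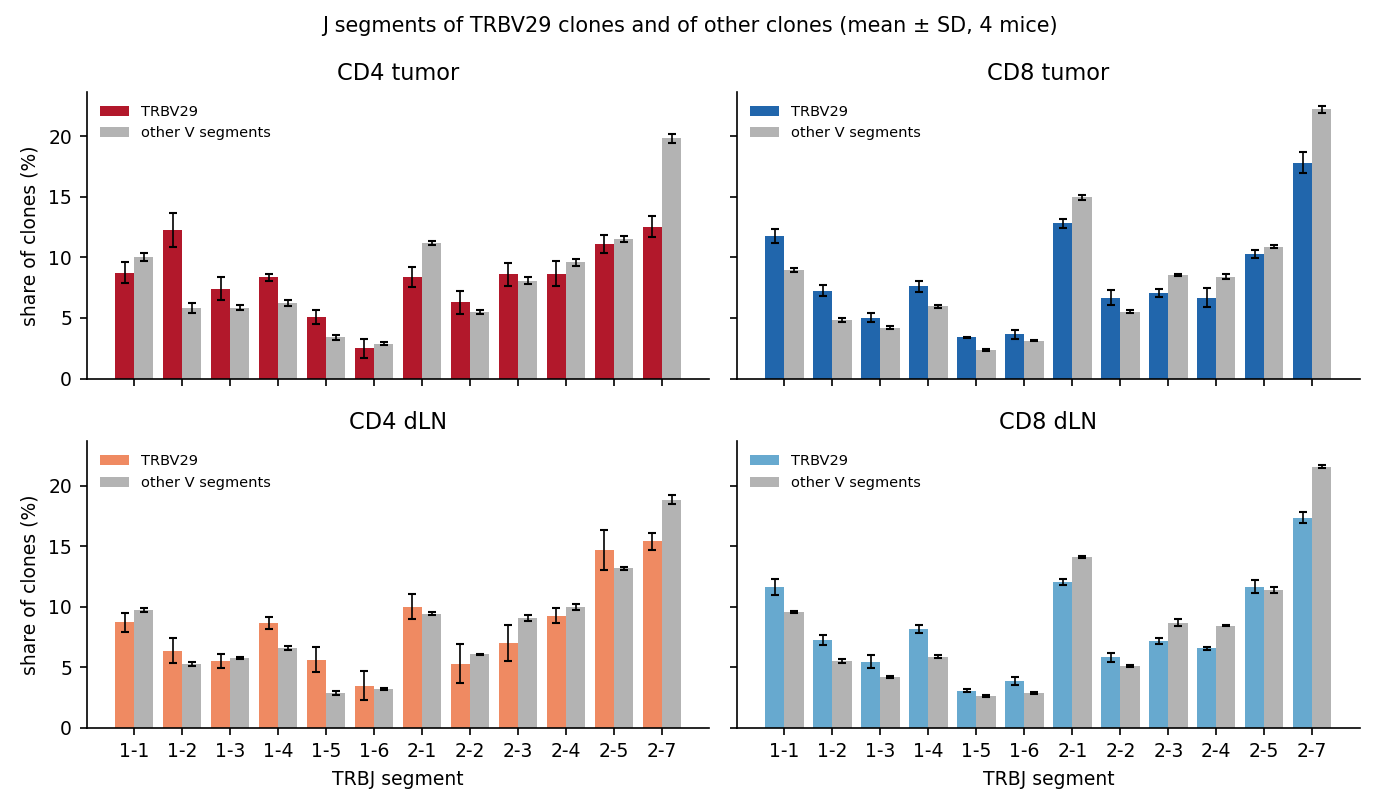
Share of clones in percent (vertical axis) using each TRBJ segment (horizontal axis) among TRBV29 clones (colored) and clones of other V segments (gray) in the 4 groups, as mean ± SD of 4 mice. TRBJ1-2 stands out among CD4 tumor TRBV29 clones with 12.3%, against 5.80% of other clones.

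CDR3 length of TRBV29 clones differed between the subsets. The mean over distinct clones was 14.08 ± 0.0360 residues in the CD4 tumor, 13.81 ± 0.0648 in the CD4 dLN, 13.68 ± 0.0217 in the CD8 tumor and 13.59 ± 0.0405 in the CD8 dLN (SD, n = 4). In CD4+ T cells the tumor values, 14.04 to 14.12, lay above the dLN values, 13.73 to 13.88 (difference 0.274 residues, two-sided exact permutation test, p = 0.0286). For CD8+ T cells the difference of 0.0900 residues had the same p of 0.0286 in the exact permutation test, but did not pass at equal depth (0.0637, exact permutation p = 0.0857). Of 22 segments, 45.5% passed this test in CD4+ and 72.7% in CD8+ T cells, and TRBV29 had the second largest lengthening in CD4+ T cells.

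TRBV29 clones had shorter CDR3s in CD8+ than in CD4+ T cells, with differences of -0.399 residues in the tumor and -0.215 in the dLN (exact permutation p = 0.0286 for both). In each tissue 63.6% of segments passed, and TRBV29 had the most negative difference of the 22. Against clones of other segments, TRBV29 CDR3s were shorter in CD8+ T cells, with differences of -0.405 residues in the tumor and -0.369 in the dLN, and longer by 0.159 in the CD4 tumor (exact permutation p = 0.0286 for each). In the CD4 dLN the difference was 0.0166 residues (exact permutation p = 0.686). The same comparison with the rest is not given for other single segments. V bases in the CDR3 averaged 13.09 (CD8 tumor) and 13.07 (CD8 dLN) for TRBV29 clones, against 13.64 for other clones in both. Among TRBV29 clones, CDR3s of 16 or more residues made up 13.8% ± 1.03 in the CD4 tumor and 9.61% ± 0.714 in the CD4 dLN (SD, n = 4). They made up 8.41% ± 0.142 in the CD8 tumor and 6.01% ± 0.541 in the CD8 dLN. For clones of other segments the means were 12.4%, 9.11%, 14.6% and 12.8% in the same order.

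**Figure D5:**
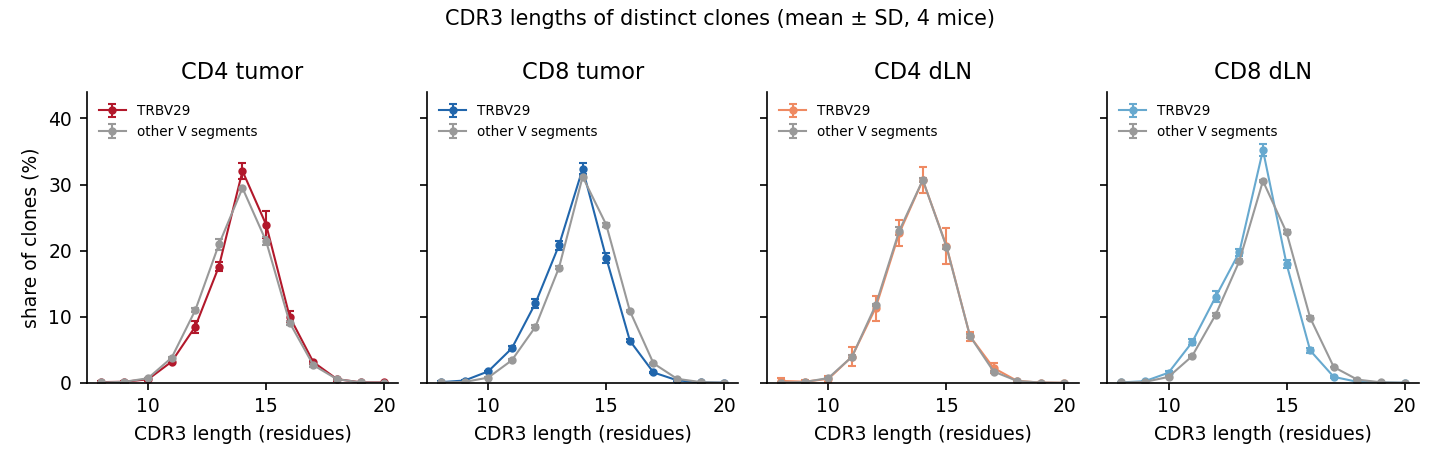
Distribution of CDR3 length in residues (horizontal axis) as percent of distinct clones (vertical axis, mean ± SD of 4 mice) for TRBV29 clones (colored) and clones of other V segments (gray). TRBV29 clones are shifted to shorter CDR3s in both CD8 groups and slightly to longer ones in the CD4 tumor, with means of 13.68, 13.59 and 14.08 residues.

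TRBV29 clones kept on average 13.02 to 13.16 of the 17 germline V bases, and 8.21% to 10.0% kept all 17. The number of inserted bases averaged 3.96 ± 0.133 in the CD4 tumor and 3.77 ± 0.129 in the CD4 dLN, and 3.40 ± 0.0851 and 3.38 ± 0.0265 in the CD8 tumor and dLN (SD, n = 4). All CD4 tumor values, from 3.82 to 4.14, lay above all values of both CD8 groups, of which the highest was 3.50. Clones of other segments averaged 3.39 in the CD4 tumor, 3.29 in the CD4 dLN, 3.46 in the CD8 tumor and 3.33 in the CD8 dLN. Where no D was found, all bases between V and J were counted as inserted. TRBD1 was assigned to 62.4% ± 2.18 of CD4 tumor TRBV29 clones and to 57.2% to 58.8% on average in the other groups, against 39.8% to 43.3% of clones of other segments. The lowest CD4 tumor value, 61.2%, lay above the highest of the other groups, 60.4%. These values were not tested, and D assignment on short stretches of bases is uncertain, with no D found for 21.9% to 24.6% of TRBV29 clones.

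Identical TRBV29 nucleotide clones were rarely found in several mice in CD4+ T cells. Of the TRBV29 clones, 32 of 5713 (0.560%) in the CD4 tumor and 7 of 2083 (0.336%) in the CD4 dLN were found in 2 or more mice, against 1.79% and 2.22% of other clones. In CD8+ T cells 3.06% of 14896 clones in the tumor and 3.89% of 15455 in the dLN were found in 2 or more mice, against 3.59% and 4.02% of other clones. No TRBV29 clone was found in all 4 mice in the CD4 groups, where 0.0279% (tumor) and 0.0439% (dLN) of other clones were. In the CD8 groups 0.121% (tumor) and 0.153% (dLN) of other clones were found in all 4 mice. Of the TRBV29 clones, 10 in the CD8 tumor (0.0671%) and 7 in the CD8 dLN (0.0453%) were. The most frequent of these in each CD8 group is the first sequence here, and the other two are the next most frequent of the CD8 dLN.
TRBJ1-2, all mice, CD8 tumor and CD8 dLN: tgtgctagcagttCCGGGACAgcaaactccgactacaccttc
TRBJ2-7, all mice, CD8 dLN: tgtgctagcagttatgaacagtacttc
TRBJ2-7, all mice, CD8 dLN: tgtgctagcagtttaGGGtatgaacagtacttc
The first had a geometric mean of 0.00121% of reads in the CD8 tumor and 0.00291% in the CD8 dLN. In the shorter TRBJ2-7 clone no base lies between the V and J parts, whose assignments overlap by 1 base, and the longer one has 3 bases between them.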

How the data were processed

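TCRβ libraries of sorted T cells from 4 mice were analysed. The authors trimmed reads with Cutadapt 3.2, filtered them with PRINSEQ and assembled productive clones on IMGT segments with MiXCR. The deposited values are raw read counts per clone and, computed by the authors, each clone's fraction of its library. No molecular identifiers were used, so intervals and floors cover counting error only.

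Here each library was drawn without replacement (seed 13) to 6 reads per sorted cell. A clone was defined by its V and J segments together with the nucleotides of its CDR3, and libraries were summed per mouse and group. Read and clone counts were tested over 24 V segments, 254 V and J pairs or 12 J segments with the edgeR 4.0.16 quasi-likelihood test (R 4.3.3), with column totals as library sizes and Benjamini-Hochberg adjustment at 0.05. Other measures were tested with exact permutation tests over 70 divisions of the mice (two-sided), or 24 pairings of left and right sides (one-sided), with scipy 1.17.1. Segments with at least 20 clones in every mouse and group entered comparisons of segments. A floor is 3 reads, and intervals are 95% Wilson intervals. All p-values come from 4 mice of 1 experiment. Those of edgeR rest on a spread pooled over the columns of all groups in a fit and moderated across features. They can therefore be far smaller than the values of 4 against 4 mice alone allow.

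Samples of the same number come from the same mouse per the labels. Their deviations in log2 clone share correlated with a mean r of 0.0693 (from -0.407 to 0.513, over 0.1 in 13 of 24 pairs). The mouse as a block was an alternative.

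On simulated counts for the CD8 comparison of tumor and dLN, edgeR called 4 of 4 changed V segments by clones and 1 of 4 by reads (24 segments), with 0 false calls in both, and 40 of 40 changed V and J pairs of 254, with 4 false calls. The members, lists and tests were chosen with earlier results of these data known. Named were the V segments used by NKT cells, the 3 segments most like TRBV29 by clone share, J segments by use or test, the leading TRBV29 clone of each mouse and group, and the 3 leading clones found in all mice. The names TRBV24 and TRBV12-1 were added once the values were known. Alternatives were the deposited reads, another seed, read minimums, equal depth, amino acid clones, TMM, DESeq2 1.42.0, no filter, single sides and each mouse left out. The germline sequence and coordinates are from GRCm38 (GENCODE), and the germline bases matched 98.4% of 35701 distinct TRBV29 clones over their V bases.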

Additional observations from a re-analysis of the deposited data

Results flagged for a closer look

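The difference between CD8+ and CD4+ T cells in the change of TRBV29 share from dLN to tumor passed the test of the interaction itself, both by clones (-2.09 on the log2 scale, edgeR adjusted p = 5.66e-20) and by reads (-2.06, edgeR adjusted p = 0.00182). By reads it did not pass in an exact permutation test of mouse means (adjusted p = 0.0980), and it was -1.18 without clones above 0.1% of a repertoire. By clones, all 4 mice were higher in the CD4 tumor than in the CD4 dLN and lower in the CD8 tumor than in the CD8 dLN. Dixon's criterion was applied to 6 TRBV29 measures in each of the 4 groups (read share, clone share, CDR3 length, share of the 10 largest clones, left and right overlap, and share of clones found in the other tissue). In none of these 24 sets of 4 mice did the gap of a mouse to its nearest neighbor pass the 95% critical value as a share of the range, the CD8 tumor read share with mouse 7 included. Values of other segments were not tested in this way.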

How the results depend on the processing

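Of 357 alternative values with a test, 332 kept their direction and their side of the threshold, 4 reversed, 3 newly passed and 18 no longer passed. All 128 counts of J segments or pairs stayed within 1.5 times. Of 76 values with a mouse left out and no test, 3 changed sign, all of results that had not passed. Leaving out clones above 0.1% was chosen after seeing the data. It took the read share of CD4 tumor over dLN to 0.89 (now passing), that of CD8 over CD4 in the tumor to 0.18 (reversed), the CD4 difference in the 10 largest clones to -3.16 (reversed), the CD8 tumor overlap difference to -7.85 (no longer passing), the CD4 dLN overlap difference to 1.16 (reversed) and the CD8 tumor contrast within minus between mice to 0.00318 (reversed). DESeq2 gave 0.69 for the CD4 read share (now passing). Exact permutation tests of mouse means no longer passed for the CD8 read share (-1.46), the read interaction (-2.23) and the clone share of CD8 over CD4 in the tumor (-0.36). The CD8 difference in CDR3 length was 0.0637 at equal depth, and the CD4 tumor contrast within minus between mice was -0.470 in deposited reads, neither passing. With each mouse left out, the read share of CD8 over CD4 in the tumor ranged from -1.27 (without mouse 7, passing) to -0.36. The other causes were not tested.

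TMM or DESeq2 changed the split of higher and lower V segments by clones, from 6 and 14 to 9 and 8 under both for CD8 over CD4 in the tumor, from 7 and 13 to 7 and 5 (TMM) for CD8 tumor over dLN, from 6 and 14 to 6 and 8 (DESeq2) for CD4 tumor over dLN, from 9 and 14 to 10 and 9 (DESeq2) in the dLN and from 10 and 6 to 8 and 9 (DESeq2) for the interaction. By reads it went from 5 and 7 to 8 and 6 (TMM) or 10 and 5 (DESeq2) for CD8 over CD4 in the tumor. The rank of TRBV29 was the same under each. With the mouse as replicate block, the CD4 clone share difference was 1.81 and no edgeR call on TRBV29 shares changed. The same J pairs passed as without it, and so did the same J segments except TRBJ2-5 in the CD8 tumor. The exact tests cannot go below p = 0.125 with the block, so these no longer passed: CDR3 length against other segments (0.159 in the CD4 tumor, -0.405 and -0.369 in the CD8 tumor and dLN), CDR3 length of tumor minus dLN (0.274 for CD4, 0.0900 for CD8) and of CD8 minus CD4 (-0.399 in the tumor, -0.215 in the dLN), the 10 largest clones (7.39 for CD4, 37.2 for CD8), the tumor overlaps (-26.3 for CD4, -38.6 for CD8) and the clones found in the dLN (-16.2).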
